A study of Populus trichocarpa with 9 samples.

Results

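Stem differentiating xylem of Populus trichocarpa (black cottonwood, genotype Nisqually-1) was compared between stems bent for 7 days and unbent control stems. The members are the 6 RNA libraries of these groups, of 9 in the series, and they were chosen by the days of bending in their titles. The 7-day group comprises 3 libraries of xylem scraped from the upper side of stems bent to 90 degrees, and the control group comprises 3 libraries from the corresponding place on stems that were not bent, labelled day 0. All trees were 6 months old, grown in a greenhouse and, per the methods of the study, propagated as clones. The other 3 libraries, from stems bent for 3 days, entered the estimate of the spread and are set beside the results where they add to them. No unbent stems are labelled day 7, so that the effects of bending, of 7 elapsed days and of the day of harvest cannot be told apart. The labels do not say that replicates are separate trees, and the spread behind each p-value is that between these libraries, part of which may be technical.

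When a stem of an angiosperm tree is displaced, its cambium forms tension wood (TW) on the upper side. Many fibers of TW deposit an inner gelatinous layer made mostly of crystalline cellulose, and TW holds little lignin. Differentiating xylem is the tissue in which these walls are made, so its RNA is rich in transcripts for cellulose synthases and for the enzymes that make monolignols, the precursors of lignin. In bulk tissue, fewer cells of a type and less RNA per cell cannot be told apart.

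The data are raw read counts for 41335 gene models, of which 27795 passed a filter on low counts and 4874 had no count in any library. Total counts ranged from 21226380 to 29539805 in the 7-day libraries and from 22292997 to 28866573 in the controls, so that 1 count equals 0.0321 to 0.0482 CPM, read counts relative to library size. Levels of genes are CPM after TMM scaling, which divides out a general shift between libraries, and the TMM factors were 0.838 to 0.977 in the 7-day libraries and 1.04 to 1.11 in the controls. Composition is given as the share of a library's total counts, with no scaling. Neither quantity is corrected for gene length, so that ranks are ranks by reads. The xylem label fits the genes that can be named: all of the 5 secondary wall cellulose synthases and 22 monolignol genes passed the filter, and PtrCesA18 and PtrAldOMT2 stood among the 24 most abundant models of both groups. IDs other than those the study names could not be paired with names, so that markers of bark, phloem or cambium were not analysed here. Log CPM profiles of replicates correlated at 0.953 to 0.970 among the 7-day libraries and 0.939 to 0.957 among the controls, and 7-day with control libraries at 0.887 to 0.947, a description across genes of libraries that share most of their transcripts.

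After 7 days of bending the RNA of the xylem was concentrated in fewer transcripts. The 10 most abundant models of each library took 7.18, 6.55 and 6.95% of its counts in the 7-day libraries (replicates 1 to 3), against 4.27, 3.79 and 3.96% in the controls. The 100 most abundant took 22.5, 20.4 and 21.99% in the 7-day libraries and 16.2, 15.7 and 15.4% in the controls, and these groups did not overlap. The number of models that hold 50% of the counts was 902, 1156 and 967 in the 7-day libraries, against 1484, 1543 and 1600 in the controls. The inverse Simpson index, the number of equally abundant models that would give the same concentration, averaged 1039 ± 101 in the 7-day libraries and 2079 ± 127 in the controls (SD, n = 3 each). With 3 libraries against 3, a two-sided exact permutation test cannot go below p = 0.1, and that value was reached by 7 of 8 composition measures (adjusted p = 0.114 over the 8). The single most abundant model took 1.09 ± 0.0793% of counts in the 7-day libraries and 0.617 ± 0.0717% in the controls.

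**Figure D1:**
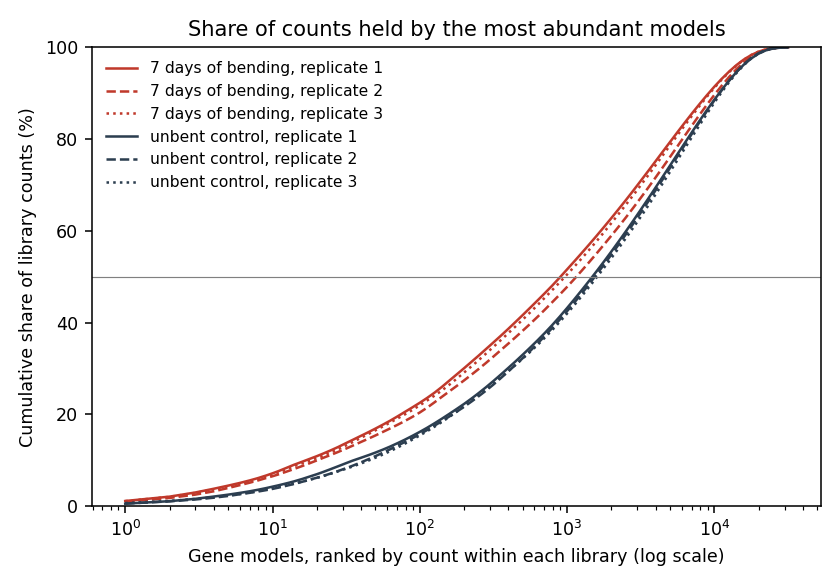
Cumulative share of library counts (y axis, %) against the number of gene models, ranked by count within each library (x axis, log scale), for the 3 libraries of stems bent for 7 days and the 3 unbent controls. The 7-day curves lie above all control curves up to 25119 models, beyond which the curves converge and some cross. The 7-day curves meet the grey line at 50% of counts at 902 to 1156 models, against 1484 to 1600 models in the controls.

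The concentration was seen at each depth of the ranking down to the 1000 most abundant models. The 1000 most abundant models held 49.97 ± 1.96% of counts in the 7-day libraries and 42.6 ± 0.602% in the controls (SD, n = 3 each). A fixed set of 100 models, those with the highest mean over all 9 libraries and so chosen in part by their level in the 7-day libraries, took 21.8, 19.9 and 21.3% in the 7-day libraries and 14.9, 15.2 and 13.9% in the controls. Models with at least 1 CPM of unscaled counts numbered 24006 ± 362 in the 7-day libraries and 24864 ± 171 in the controls. The number with at least 10 counts was 26894 ± 302 in the 7-day libraries and 27327 ± 193 in the controls, and here the groups overlapped (exact permutation p = 0.2). Among the 3-day libraries the share of the 100 most abundant was 16.7, 20.3 and 14.2% for replicates 1 to 3, so that replicate 2 stood near the 7-day libraries and replicate 3 below every control.

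Across all expressed genes, edgeR's quasi-likelihood test called 2432 of the 27795 tested models at a Benjamini-Hochberg adjusted p under 0.05, a background of 8.75%. Of these 1687 rose (6.07% of those tested) and 745 fell (2.68%). Called higher models had a median log2 fold change of 1.32, with the middle 50% of them between 0.89 and 1.95. Called lower models had a median of -1.13, with the middle 50% between -1.60 and -0.82. Changes over 16-fold were met by 45 models that rose and 9 that fell. The balance of all tested models ran the other way, with 12573 positive and 15218 negative log2 values and a median of -0.06. The adjusted p did not go below 0.00921, and 7266 models had an unadjusted p under 0.05. Of the 2432 called models, 2431 had 7-day libraries that did not overlap with the controls, against 31% of all tested models. The count depended on single libraries: it was 343 without 7-day replicate 3, 910 without 7-day replicate 1, 643 without control replicate 1 and 983 without control replicate 3, with 315, 697, 497 and 687 models higher, and without 3-day replicate 1 the models called lower numbered 474. It was 3430 by edgeR's exact test (12.3% of those tested, 7.76% higher and 4.58% lower) and 4438 by DESeq2 (16%, 10.2% higher and 5.87% lower).

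**Figure D2:**
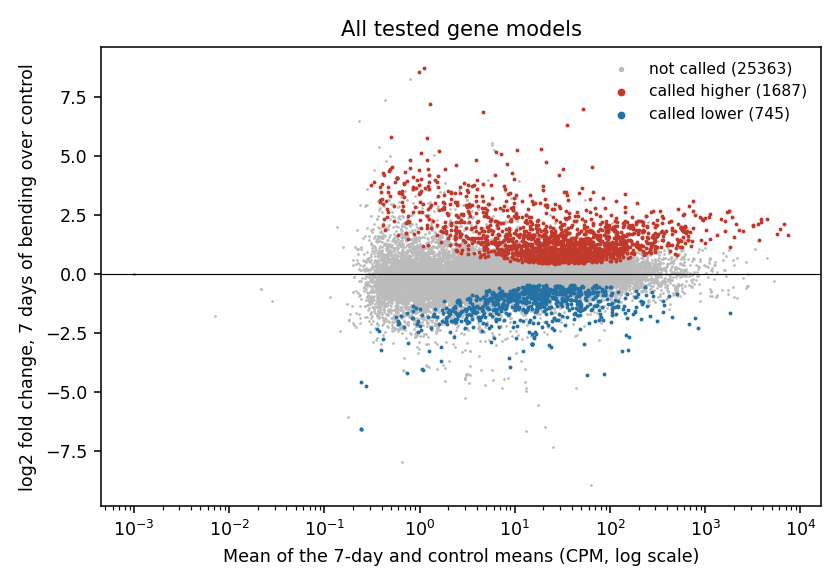
Log2 fold change of 7 days of bending over control (y axis) against the mean of both group means (x axis, CPM, log scale) for each of the 27795 tested gene models, with the 1687 called higher in red, the 745 called lower in blue and the rest in grey. Above 1000 CPM nearly all called models lie on the higher side, 29 against 1.

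Calls were more frequent among abundant transcripts, and their direction shifted with abundance. Of 80 models with a mean of 1000 CPM or more over the 6 libraries, 29 rose, 1 fell and 50 did not pass. Of 1735 models between 100 and 1000 CPM, 16.9% rose and 3.34% fell. Between 10 and 100 CPM, which holds 12591 models, 7.60% rose and 3.33% fell, and between 1 and 10 CPM 3.20% rose and 2.30% fell. Under 1 CPM 2.50% rose and 0.870% fell. The standard error also differed by class, with a median of 0.58 on the log2 scale under 1 CPM, 0.18 between 10 and 100 CPM and 0.36 at 1000 CPM or more, so that the class with the largest share of calls was not the one measured most precisely. The median log2 fold change was 0.59 at 1000 CPM or more and -0.20 under 1 CPM. The 80 most abundant models together took 19.2 ± 0.980% of counts in the 7-day libraries and 13.1 ± 0.659% in the controls (SD, n = 3 each), while the class between 10 and 100 CPM took 37.0 ± 1.42% in the 7-day libraries and 42.6 ± 0.520% in the controls.

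The models that were called carried much of the library. Those called higher took 28.5, 26.7 and 28.0% of counts in the 7-day libraries and 8.39, 13.1 and 10.02% in the controls, and those called lower took 1.47, 1.66 and 1.36% in the 7-day libraries and 4.76, 3.77 and 4.49% in the controls. These shares are a description, since the calls chose the models. The counts of all models that were not called made up 70.7 ± 0.832% of the 7-day libraries and 85.1 ± 1.86% of the controls (SD, n = 3 each). Scaled by library totals alone, the median over all tested models was -0.33, and 1101 models were called higher and 2119 lower. The share of calls in the higher direction was thus 69.4% with TMM factors and 34.2% with library totals, so that the direction of models with small changes depends on the scale chosen.

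Between the groups, 21.3% of the counts changed hands, as the summed gain in mean share of 10392 models that gained and the equal loss of 25403 that lost. The gain was concentrated, with 68 models holding 50% of it, whereas 736 models held 50% of the loss. Shares have a fixed total, so that a model can lose share with no change in its own level. How much of the loss is of this kind was not tested, and the same sum was not taken between replicates. The 10 largest gains added up to 4.74% of all counts and the 10 largest losses to 1.57%. The 68 models were chosen by their gain between these same libraries, so that their shares are a description and a gap between the groups follows from the choice. They took 16.7, 15.5 and 16.2% of counts in the 7-day libraries and 4.35, 6.92 and 5.08% in the controls, with control replicate 2 nearest to the bent stems. In the 3-day libraries they took 9.89, 12.7 and 7.84%, between the ranges of the other groups.

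**Figure D3:**
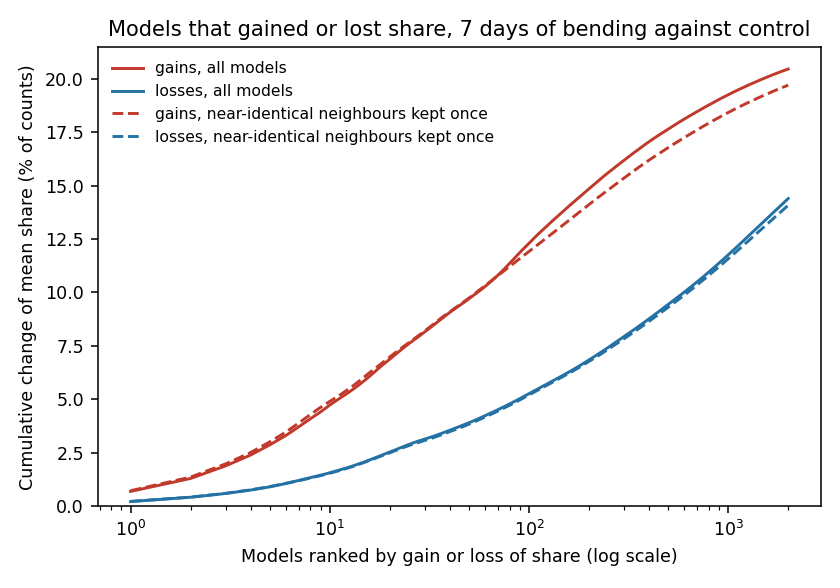
Cumulative change of mean share (y axis, % of counts) over the models ranked by their gain (red) or loss (blue) of share at 7 days of bending against control (x axis, log scale), with all models (solid) and with 1 model kept of each group of near-identical neighbours (dashed). The gain climbs with far fewer models than the loss, reaching 4.74% with 10 models where the loss reaches 1.57%.

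The ranking by reads was rearranged at its top. Of the 10 most abundant models of the 7-day libraries 3 were also among the 10 most abundant of the controls, and of the 100 most abundant 60 were shared. The models of each ranking were chosen by their level in 1 of the groups compared, which leans their calls toward that group, so that the calls are given as a description of both rankings. Of the 100 most abundant models of the 7-day libraries 52 were called higher by edgeR's quasi-likelihood test and none lower, with 1 lower at an unadjusted p under 0.05 and none by the exact test or DESeq2. Of the 100 most abundant models of the controls 17 were called higher and 5 lower by the quasi-likelihood test. Of all tested models this test called 6.07% higher and 2.68% lower, while the exact test called 4.58% lower and DESeq2 5.87%.

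Potri.013G151400 had the largest gain. It measured 11346, 10233 and 10850.1 CPM in the 7-day libraries, against 1889, 3463 and 2075 CPM in the controls, and rose 4.37-fold (log2 fold change 2.13 with SE 0.42, adjusted p = 0.0188 by the quasi-likelihood test of edgeR). It was the second most abundant model of the 7-day libraries, and stood at rank 14 in the controls. Its ID is not paired with a gene name in the sources used here, and the models on both sides of it in the order of IDs were among the 20 largest gains as well. Its call was lost without 7-day replicate 1 or 3 or control replicate 1 or 3 (adjusted p by edgeR = 0.0537, 0.0711, 0.0760 and 0.0651), and over all alternatives it lay between 5.95e-10 and 0.0760.

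Potri.006G136700, the most abundant model of the 7-day libraries and the second most abundant of the controls, had the next largest gain. It measured 13729 and 12949 CPM in 7-day replicates 1 and 3 and 7311 CPM in replicate 2, against 2806, 4647 and 3362 CPM in the controls (log2 fold change 1.65 with SE 0.40, adjusted p = 0.0375 by the quasi-likelihood test of edgeR). It rose by this test, and 7-day replicate 2 was the lowest of the 3, as in PtrCesA18 and PtrAldOMT2. Over alternatives its adjusted p ranged from 1.47e-06 to 0.136, with the call lost without 7-day replicate 1 or 3 (adjusted p by edgeR = 0.106 and 0.136), control replicate 1 or 3 (0.129 and 0.101) or 3-day replicate 1 (0.0673) and in a fit of the compared groups alone (0.0635).

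Losses were smaller and spread over more models. Potri.016G104300 measured 776, 797 and 1086 CPM in the 7-day libraries, against 2617, 2683 and 3052 CPM in the controls, and fell (log2 fold change -1.65 with SE 0.39, adjusted p = 0.0336 by the quasi-likelihood test of edgeR). It stood at rank 138 in the 7-day libraries and at rank 8 in the controls. Leaving out any 1 of the 6 compared libraries or 3-day replicate 1 lost its call, with edgeR adjusted p from 0.0512 to 0.117, where the lowest over alternatives was 2.34e-09. Potri.004G015300 measured 301, 318 and 244 CPM in the 7-day libraries, against 2080.4, 1009 and 1068 CPM in the controls, a 4.82-fold lower level in bent stems (log2 fold change -2.27 with SE 0.35, adjusted p = 0.0100 by the quasi-likelihood test of edgeR). Among the libraries left out in turn, 7-day replicate 3 was the one whose absence ended its call (adjusted p by edgeR = 0.0534, lowest over alternatives 4.13e-10).

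Some of the largest losses did not separate the groups. Of the 20 models with the largest loss of share 4 were called lower, beside 2.68% of all tested models, and 8 were neighbours with similar profiles. The 20 were chosen by their loss between these same libraries, so that this count of calls is a description. Together these 8 neighbours took 0.847, 0.810 and 0.565% of counts in the 7-day libraries, against 2.99, 1.497 and 0.551% in the controls. Control replicate 3 lay below every 7-day library, and 0 of the 8 were called by the quasi-likelihood test of edgeR (adjusted p = 0.299 to 0.412), by its exact test, by DESeq2 or at an unadjusted p under 0.05. The median standard error of their log2 fold changes was 0.58, against 0.26 over all tested models.

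Models that followed a called model were called in the same direction more often than all tested models, and some neighbours shared counts. Of the models called higher, 20% were followed in the order of IDs by another called higher, beside 6.07% of all tested models, and of those called lower 11.9% were followed by another called lower, beside 2.68%. The longest run comprised 33 consecutive models called higher. Its first and last models had nearly the same counts, 143896 and 144092 in 7-day replicate 1 and 22848 and 22381 in control replicate 1. The 31 models between them shared a floor: their lowest counts were 23906, 18092 and 19040 in the 7-day libraries and 3949, 10571 and 3812 in the controls, and 29 to 30 of the 31 lay within 10% of that floor in each 7-day library, against 15 to 18 of the 31 in each control. The run took 3.55, 3.53 and 3.20% of counts in the 7-day libraries and 0.830, 1.62 and 0.846% in the controls, and 18 of its members were among the 68 models with the largest gains.

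In all, 433 models formed 107 groups of neighbours whose counts agreed within 5% in each of the 9 libraries, with up to 29 models in a group, a rule chosen after the values were seen. They took 5.67, 5.60 and 5.04% of counts in the 7-day libraries and 3.56, 3.82 and 3.80% in the controls. Of the 433 models 52 were called higher and 8 lower, beside 6.07% and 2.68% of all tested models. With 1 model kept of each group, the 100 most abundant models took 21.9 ± 1.08% of counts in the 7-day libraries and 15.9 ± 0.458% in the controls (SD, n = 3 each), 2389 models were called, 61 models held 50% of the gain and 697 held 50% of the loss. Of models called higher 17.5% were then followed by another called higher. The composition of the 7-day libraries thus differed from the controls by about the same amount with and without these groups. None of the genes named here belonged to such a group. The rule reached only part of the neighbours among the gains. Of the 20 largest gains 4 were in such a group, but 11 had another of them within 20 IDs. These 11 took 5.24, 5.12 and 5.03% of counts in the 7-day libraries and 1.104, 1.89 and 1.37% in the controls. They were chosen by their gain, so that these shares are a description. The composition without these 11 was not tested.

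Few of the called models lay near the floor of detection in either group. With at most 3 counts summed over the 3 controls, 12 models were called higher. In the reverse direction, 4 models with at most 3 counts summed over the 7-day libraries were called lower. Among all tested models, whether called or not, 10 had at least 10 counts in every 7-day library and at most 3 in the controls together, and 0 had the reverse. From under 1 CPM in the controls to at least 10 CPM in the 7-day libraries, 10 models were called higher, and 0 were called lower across the same bounds.

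Secondary wall cellulose synthases assemble in complexes at the plasma membrane and spin the cellulose of wood walls. Of the 5 genes 1 was called higher by edgeR's quasi-likelihood test, PtrCesA18, beside 6.07% of all tested models. The exact test called 3 higher, beside 7.76%, DESeq2 called 2 higher, beside 10.2%, and 3 were higher at an unadjusted p under 0.05. None was called lower by these 3 tests or at an unadjusted p under 0.05. The list had a median log2 fold change of 0.85 against -0.06 over all tested models. Some copies are alike over the stretch of the forward primers that the study lists, here for the pair PtrCesA8 and PtrCesA18, printed 5′ to 3′ with the differing base in capitals.

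PtrCesA8: gttggcctctgtcttctctcttgtC

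PtrCesA18: gttggcctctgtcttctctcttgtT

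The primers differ by C25T, counted from 1 at the 5′ end with the base of PtrCesA8 first. Reads that fit both copies could be split or counted at each. The level of each copy is thus uncertain, and so is their sum if such reads were counted at each. PtrCesA18 measured 6047, 4245 and 5862 CPM in the 7-day libraries, against 1773, 2152 and 2042 CPM in the controls, and rose (log2 fold change 1.44 with SE 0.36, adjusted p = 0.0405 by the quasi-likelihood test of edgeR). It stood at rank 10 by reads in the 7-day libraries and rank 20 in the controls, and its gain of share was the 11th largest of all models. Its call was lost without any 1 of the 6 compared libraries but 7-day replicate 2 (adjusted p by edgeR = 0.0646 to 0.143) and without 3-day replicate 1 (0.0691), and the lowest over alternatives was 4.76e-07. The copy PtrCesA8 measured 826, 444 and 754 CPM in the 7-day libraries and 443, 384 and 299 CPM in the controls (log2 fold change 0.85, SE 0.35), with 7-day replicate 2 just above control replicate 1. It did not pass the quasi-likelihood test of edgeR (adjusted p = 0.164) or DESeq2 (0.0682), and passed edgeR's exact test (0.0466). PtrCesA7 measured 2990, 1664 and 2556 CPM in the 7-day libraries and 1187, 1271 and 1117 CPM in the controls, without overlap. Its log2 fold change of 1.01 (SE 0.37) did not pass the quasi-likelihood test of edgeR (adjusted p = 0.123), and passed the exact test (0.00402) and DESeq2 (0.0191).

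The sum of the family was higher in every 7-day library than in any control, and its make-up differed. Summed over the 5 genes it measured 12794, 8001 and 11834 CPM in the 7-day libraries, against 6591, 6249 and 7316 CPM in the controls, with no overlap. PtrCesA18 made up 47.3, 53.0 and 49.5% of this sum in the 7-day libraries and 26.9, 34.4 and 27.9% in the controls. PtrCesA4 made up 15.1, 13.1 and 15.3% in the 7-day libraries and 34.3, 27.1 and 40.8% in the controls. Each of these shares reached the smallest possible p of the two-sided exact permutation test for 3 against 3 (p = 0.1). PtrCesA18 and PtrCesA4 had the highest and the lowest log2 fold change of the 5 genes in these same libraries, so that these shares are a description. PtrCesA4 alone measured 1937, 1049 and 1811 CPM in the 7-day libraries and 2261, 1695 and 2982 CPM in the controls, which overlapped. It did not pass the test (log2 fold change -0.53 with SE 0.47, adjusted p = 0.509 by the quasi-likelihood test of edgeR), although its loss of share was the 11th largest of all models. As a share of the library, the 5 genes took 0.958 ± 0.155% of counts in the 7-day libraries and 0.725 ± 0.0782% in the controls (SD, n = 3 each, exact permutation p = 0.2). The summed level was thus separated on the TMM scale and overlapped as a share of the library.

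**Figure D4:**
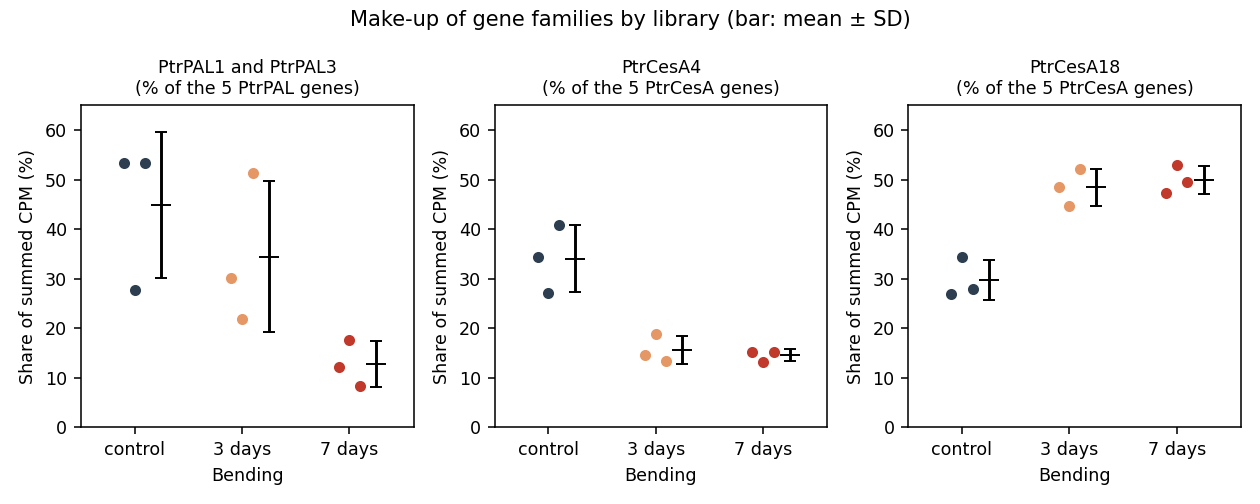
Share of the summed CPM of a gene family (y axis, %) taken by PtrPAL1 and PtrPAL3 together, by PtrCesA4 and by PtrCesA18, in each library of the control, 3-day and 7-day groups (x axis), with the mean ± SD beside the points. In all 3 panels the control and 7-day libraries do not overlap, and for the cellulose synthases the 3-day libraries stand nearer to the 7-day libraries. The genes shown were chosen with results of these libraries known.

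In the 3-day libraries the shares of the cellulose synthases were already near those at 7 days. PtrCesA18 made up 48.5, 44.6 and 52.2% of the family and PtrCesA4 14.7, 18.8 and 13.5%. The summed level was 5339, 8524 and 3295 CPM, a range that reached below and above the controls and overlapped only with 7-day replicate 2 among the 7-day libraries. Of the 2 hemicellulose genes named by the study, 1 was called lower, beside 2.68% of all tested models. PtrCslA2, of the family that makes mannan backbones, fell to 69.6, 40.4 and 18.6 CPM in the 7-day libraries, against 231, 171 and 361 CPM in the controls (log2 fold change -2.57 with SE 0.50, adjusted p = 0.0171 by the quasi-likelihood test of edgeR), and its call was lost without 7-day replicate 3 or control replicate 3 (adjusted p by edgeR = 0.0558 and 0.0502, lowest over alternatives 2.00e-06). PtrIRX10-1, of the xylan backbone family, measured 1508, 958 and 1659 CPM in the 7-day libraries and 656, 759 and 490 CPM in the controls, without overlap. Its log2 fold change of 1.11 did not pass the quasi-likelihood test of edgeR (SE 0.32, adjusted p = 0.0617, range over alternatives 0.00242 to 0.223). It passed the exact test (adjusted p = 0.00341), DESeq2 (0.00242) and the quasi-likelihood test without 7-day replicate 2 (0.0381) or 3-day replicate 3 (0.0484).

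**Figure D5:**
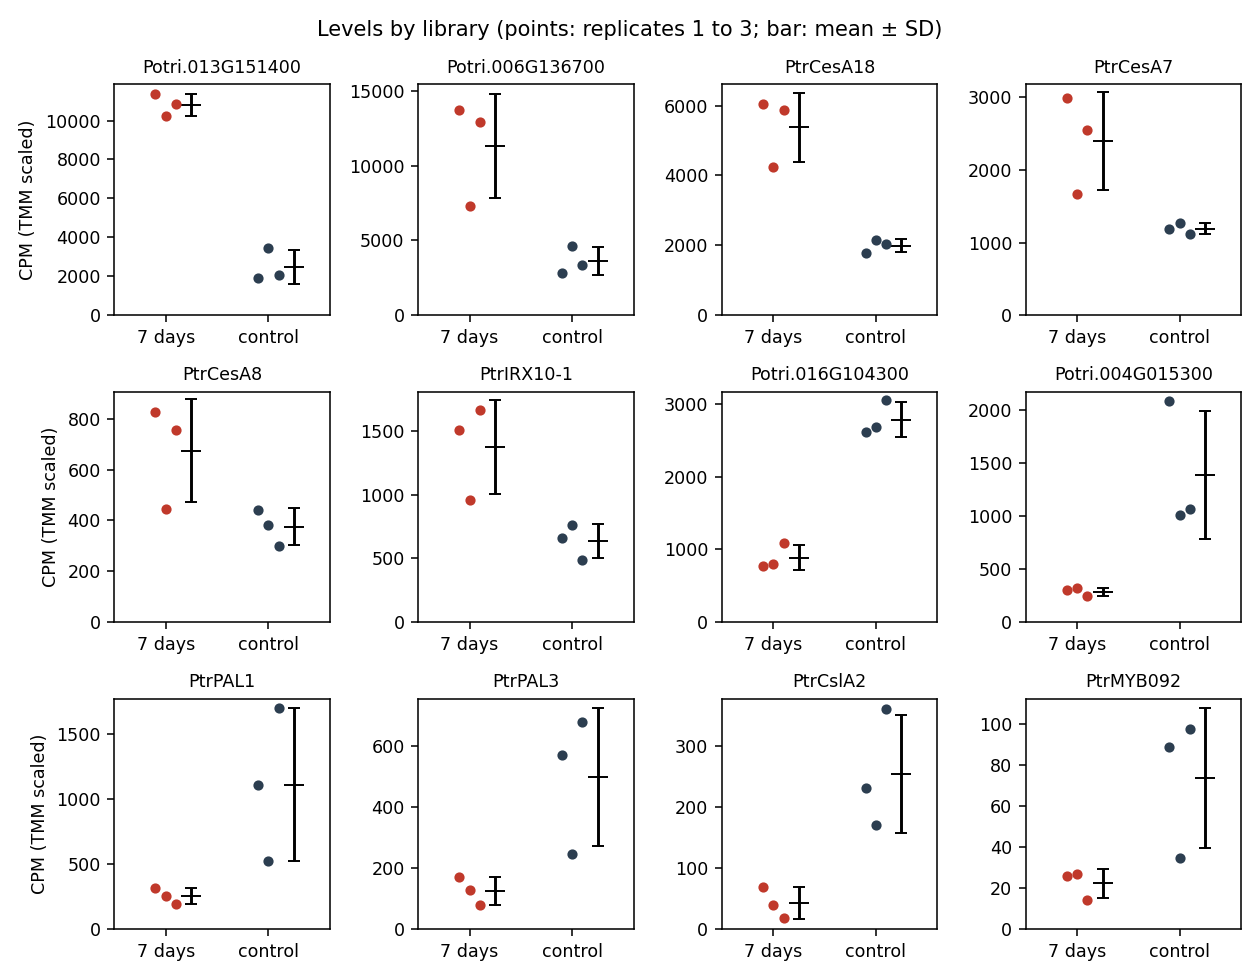
Level (y axis, CPM after TMM scaling) of 12 genes in each of the 3 libraries of stems bent for 7 days and the 3 unbent controls, with mean ± SD beside the points. The models shown by ID were chosen among called models whose libraries did not overlap, and named genes that overlapped, such as PtrCesA4 and PtrAldOMT2, are not shown. That all 12 are separated, 6 with the 7-day libraries higher and 6 lower, thus follows from the choice. Of all tested models 31% are separated. PtrCesA7, PtrCesA8 and PtrIRX10-1 did not pass edgeR's quasi-likelihood test but passed its exact test.

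Monolignol genes did not move together. Of the 22 genes edgeR's quasi-likelihood test called 2 lower, PtrPAL1 and PtrPAL3, beside 2.68% of all tested models, and 0 higher, beside 6.07%. The exact test called 4 lower and 2 higher, beside 4.58% and 7.76%. DESeq2 called 4 lower and 2 higher, beside 5.87% and 10.2%. At an unadjusted p under 0.05, 4 were lower and 3 higher. The list had a median log2 fold change of 0.15 against -0.06 over all tested models, and with library totals its median was negative, at -0.15 against -0.33. Without overlap between the groups, 3 lay higher and 5 lower, beside 16.3% and 14.7% of all tested models. Summed over the 22 genes the pathway measured 20152, 12302 and 19149 CPM in the 7-day libraries, against 14714, 15766 and 18850 CPM in the controls (two-sided exact permutation p = 0.8). As a share of the library it took 1.51 ± 0.272% in the 7-day libraries and 1.78 ± 0.292% in the controls (SD, n = 3 each, exact permutation p = 0.4). The total of the pathway thus did not differ beyond the spread between replicates, and 7-day replicate 2 lay below every control on both scales.

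Phenylalanine ammonia-lyase (PAL) opens the pathway by deaminating phenylalanine. Some of its 5 genes are alike over the stretch of the study's forward primers, shown here for PtrPAL1 and PtrPAL3, printed 5′ to 3′ with the differing base in capitals.

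PtrPAL1: ccatccaggtcaaattgaggctgcT

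PtrPAL3: catccaggtcaaattgaggctgcA

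The primer of PtrPAL3 starts 1 base later, and the difference is T25A, counted from 1 at the 5′ end of the PtrPAL1 primer with the base of PtrPAL1 first. Reads that fit both genes could be split or counted at each, so that their calls may not be separate. PtrPAL1 measured 317, 253 and 195 CPM in the 7-day libraries, against 1109, 528 and 1695 CPM in the controls, and fell (log2 fold change -2.12 with SE 0.41, adjusted p = 0.0169 by the quasi-likelihood test of edgeR). PtrPAL3 measured 172, 127 and 79.0 CPM in the 7-day libraries, against 572, 246 and 677 CPM in the controls, and also fell (log2 fold change -1.98 with SE 0.41, adjusted p = 0.0215 by the quasi-likelihood test of edgeR). Both are among the 5 monolignol genes that the study singled out on these samples, so that their direction is not independent evidence. Leaving out control replicate 1 or 7-day replicate 3 ended both calls, and leaving out control replicate 3 that of PtrPAL3, with edgeR adjusted p of up to 0.0899 for PtrPAL1 and 0.0955 for PtrPAL3, where the lowest over alternatives were 2.00e-06 and 2.30e-05. PtrPAL1 stood at rank 614 by reads in the 7-day libraries and rank 53 in the controls, and its loss of share was the 16th largest of all models.

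The other PAL genes were not called, and the make-up of the step differed without overlap. PtrPAL2, PtrPAL4 and PtrPAL5 together measured 3532, 1769 and 2973 CPM in the 7-day libraries, against 1467, 2011 and 2079 CPM in the controls (exact permutation p = 0.3). PtrPAL1 and PtrPAL3 made up 12.2, 17.7 and 8.44% of the PAL sum in the 7-day libraries and 53.4, 27.8 and 53.3% in the controls, without overlap (two-sided exact permutation p = 0.1, the smallest possible). Both genes were called lower in these same libraries, so that this share is a description and its p-value is not independent evidence. The sum over the 5 genes was 4021, 2149 and 3247 CPM in the 7-day libraries and 3148, 2785 and 4451 CPM in the controls (exact permutation p = 0.8). In the 3-day libraries PtrPAL1 and PtrPAL3 made up 30.1, 21.9 and 51.4% of the sum, which overlapped with the controls and lay above every 7-day library.

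Among 11 pathway steps, 2 had sums that did not overlap, where 31% of all tested models, taken singly, did not overlap. Hydroxycinnamoyl transferase (HCT), which couples the coumaroyl group to shikimate, measured 700.1, 757 and 791 CPM over its 2 genes in the 7-day libraries, against 1366, 881 and 1358 CPM in the controls. Cinnamyl alcohol dehydrogenase (CAD), the last step to monolignols, measured 2779, 2252 and 2878 CPM in the 7-day libraries and 1552, 1640 and 1711 CPM in the controls, from its 1 listed gene PtrCAD1. Each step reached exact permutation p = 0.1 (adjusted p = 0.433 over the 11 steps, the cellulose synthases and the pathway total), and neither PtrHCT1 nor PtrCAD1 passed the quasi-likelihood test of edgeR (adjusted p = 0.0947 and 0.148), whereas both were called by its exact test (0.0251 and 0.0189) and by DESeq2 (0.0115 and 0.00859). Caffeic acid O-methyltransferase (AldOMT), the step with the most reads for 1 gene, measured 3305, 1682 and 3386 CPM in the 7-day libraries and 2181, 2870.4 and 3250.4 CPM in the controls. PtrAldOMT2 stood at rank 24 by reads in the 7-day libraries and rank 9 in the controls, with a log2 fold change of 0.01 (SE 0.34). Its rank was thus lower in bent stems while its mean scaled level was nearly the same.

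Both transcription factors that the study followed, chosen on these samples, were called lower, so that their direction is not independent evidence. By reads PtrHSFB3-1 stood at rank 16467 in the 7-day libraries and rank 9592 in the controls, and PtrMYB092 at rank 8787 in the 7-day libraries and rank 2482 in the controls. PtrHSFB3-1, a class B heat shock factor, measured 7.76, 6.22 and 6.39 CPM in the 7-day libraries, against 23.9, 17.9 and 17.0 CPM in the controls, and fell (log2 fold change -1.53 with SE 0.28, adjusted p = 0.0139 by the quasi-likelihood test of edgeR). PtrMYB092, a MYB factor, measured 25.7, 27.0 and 14.3 CPM in the 7-day libraries, against 88.7, 34.8 and 97.4 CPM in the controls, and also fell (log2 fold change -1.72 with SE 0.37, adjusted p = 0.0248 by the quasi-likelihood test of edgeR). Control replicate 2 stood nearest to the bent stems in PtrMYB092, as it did in PtrPAL1 and PtrPAL3. The call of PtrHSFB3-1 was lost without 7-day replicate 3 or control replicate 1 (adjusted p by edgeR = 0.0706 and 0.0519), and that of PtrMYB092 without 7-day replicate 1 or 3 or control replicate 1 or 3 (0.0681, 0.105, 0.0811 and 0.0727). The lowest over alternatives were 1.53e-07 and 0.000168. PtrActin, which the study used to normalize DNA enrichment in chromatin immunoprecipitation, measured 907, 729 and 843 CPM in the 7-day libraries and 877, 794 and 904 CPM in the controls (log2 fold change -0.06, SE 0.19).

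The 3-day libraries are set against the same 3 controls, and the called models were chosen by their calls at 7 days. The 1687 models called higher at 7 days had a median log2 fold change of 1.32 at 7 days and 0.56 at 3 days over the same controls. The 745 called lower had medians of -1.13 at 7 days and -0.55 at 3 days. By edgeR's quasi-likelihood test 0 models were called at 3 days against control and 0 at 7 against 3 days, so that a difference between the times was not shown for any single model by this test. At an unadjusted p under 0.05 there were 3265 models at 3 days against control and 5617 at 7 against 3 days. The exact test called 464 and 877 in these comparisons, and DESeq2 called 913 and 1797.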

How the data were processed

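The titles gave groups and replicate numbers, columns were matched to samples by name, and 0 columns were left unmatched. The authors deposited raw read counts per gene model, whole numbers that were not normalized. The aligner TopHat is named in the submitters' processing notes without a version. Settings for genome build, counter, strand and multiply mapping reads were not given in the sources used here, so that counts of close copies and of overlapping or neighbouring models are uncertain. The smallest step of a level is 1 count, equal to 0.0321 to 0.0482 CPM in the 6 libraries. Pairs of replicates differed by more than sampling noise.

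The model was fitted in edgeR 4.0.16 under R 4.3.3. Models kept by filterByExpr were scaled by TMM factors, and a quasi-likelihood model of the 3 groups was fitted to all 9 libraries without covariates. The contrast of 7 days minus control was tested two-sided, with Benjamini-Hochberg adjustment over the 27795 tested models and a threshold of 0.05. Standard errors are the absolute log2 fold change divided by the square root of F. The script was tested on simulated data. For shares, sums and indices per library, two-sided exact permutation tests were used. Ratios of levels are of mean CPM.

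Named genes are those that the study pairs with IDs and, as 0 of the IDs matched the reference table, the 2 IDs with the largest gain and the 2 with the largest loss of mean CPM among called models. Primers were copied from the study's list. Members, lists and rules were chosen with earlier results of these data known. Alternatives were RLE and upper-quartile factors, library totals, factors without the 100 most abundant models, no filter, a stricter filter (1 CPM or more throughout at least 1 group), the Wald test of DESeq2 1.42.0, edgeR's exact test, a fit of the compared groups alone, the replicate number as a block, thinned counts and each library left out. Keeping near-identical neighbours once (within 40 places in the order of IDs, 500 counts or more in all) was added after seeing the data.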

Additional observations from a re-analysis of the deposited data

How the results depend on the processing

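Results were recomputed under each alternative. Of the values of single genes, 667 kept their direction and side of the threshold, 41 lost a call, 22 gained one and 26 changed sign, all 26 in genes that were not called. With library totals the models called higher numbered 1101 and those called lower 2119. With DESeq2, 4438 models were called, 2813 higher and 1625 lower, and the share of counts in the called models differed between 7-day and control libraries by 19.5 percentage points for the higher set and -5.02 for the lower set. With edgeR's exact test 1273 models were called lower. The causes of these shifts were not tested.

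Leaving out 1 library at a time gave 343 to 2704 calls, 315 to 1921 of them higher and 28 to 818 lower. Log2 fold changes that crossed 0 in these refits ranged from -0.11 to 0.30 for PtrPAL2, -0.24 to 0.29 for Ptr4CL3, -0.24 to 0.13 for PtrC3H3, -0.0176 to 0.431 for PtrCCR2, -0.16 to 0.28 for PtrAldOMT2, -0.23 to 0.12 for PtrCesA17 and -0.125 to 0.0301 for PtrActin. With library totals the values were -0.20 for PtrPAL2, -0.28 for Ptr4CL3, -0.0826 for PtrCCR2, -0.10 for PtrCAld5H1 and -0.29 for PtrAldOMT2. With upper-quartile factors they were -0.0436 for Ptr4CL3 and -0.0602 for PtrAldOMT2. PtrAldOMT2 was at -0.014 with no filter, -0.013 with the stricter filter, -0.0066 in the fit of the compared groups, -0.0078 with factors without the 100 most abundant models and -0.0057 with near-identical neighbours kept once.

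The replicate numbers did not pair the samples: deviations of same-numbered 7-day and control libraries correlated at 0.122, -0.341 and 0.021. With the replicate block 1847 models were called, 1336 higher and 511 lower, and PtrCesA18, PtrMYB092, Potri.006G136700 and Potri.016G104300 lost their calls (edgeR adjusted p = 0.0893, 0.0541, 0.0953 and 0.0734). All composition measures kept their direction and moved by less than the spread between replicates under thinning, with near-identical neighbours kept once and without each of the 6 compared libraries.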

Other observations

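Among other enzymes of the monolignol pathway some copies leaned apart, as given below, and others leaned together. PtrCSE1 and PtrCSE2, for example, both had positive log2 fold changes (0.48 and 0.93). Caffeoyl-CoA O-methyltransferase, which methylates the lignin precursors, summed over its 3 genes to 3184, 1713 and 2838 CPM in the 7-day libraries, against 1725, 2449 and 2305 CPM in the controls, which overlapped. PtrCCoAOMT3 lay higher in every 7-day library (860, 549 and 783 CPM, against 419, 535 and 395 CPM in the controls), and did not pass (log2 fold change 0.70, edgeR quasi-likelihood adjusted p = 0.168). PtrCCoAOMT2 had a negative log2 fold change of -0.44 and PtrCCoAOMT1 a positive one of 0.46, and both overlapped. Of the cytochrome P450 enzymes that hydroxylate the ring, PtrC4H1 measured 1531, 863 and 1535 CPM in the 7-day libraries and 730, 1007 and 882 CPM in the controls. Its copy PtrC4H2 measured 762, 474 and 698 CPM in the 7-day libraries and 828, 767 and 994 CPM in the controls, without overlap. Neither passed (edgeR quasi-likelihood adjusted p = 0.304 and 0.459). Of all tested models 31% did not overlap between the groups.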
